A study of Homo sapiens with 9 samples.

Results

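Entry of a cell into S phase is set by a short chain of regulators, and 10 genes of that chain were followed here across all libraries: MYC, the D-type cyclins CCND1 and CCND3, the kinases CDK4 and CDK6 that those cyclins activate, cyclin E (CCNE1) and its kinase CDK2, the inhibitor CDKN1B (p27), the retinoblastoma protein RB1, and E2F1. They were taken as a named list, matched by Ensembl identifier, and are 10 of the 58381 genes in each count table. All 10 passed the filter on low counts that left 12814 genes to test. The cells were EGI-1, a human line established from a bile duct cancer (cholangiocarcinoma) and carrying a short hairpin RNA that doxycycline switches on. In FOSL1sh3 and in FOSL1sh10 the hairpin is one of a pair directed at FOSL1, which encodes FRA-1, a subunit of the AP-1 transcription factor, and in GFPsh it is a control hairpin. Each group had 3 libraries. All groups alike were grown in DMEM with 10% serum, received 2 µg/ml doxycycline for 4 days, and were harvested 24 hours after seeding, so that GFPsh is a control for induction of a hairpin and no uninduced cells were compared. The labels do not say whether the cells of a group were 1 clone or a pool, nor whether replicates were separate cultures. The p-values therefore measure only the spread between these libraries, which may be technical.

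As background, mitogen signalling raises D-type cyclins, which bind CDK4 or CDK6 and start the phosphorylation of RB1. RB1 holds E2F factors in check, and once it is released cyclin E with CDK2 completes the step and E2F target genes for DNA synthesis are transcribed, while p27 and related inhibitors restrain these kinases. MYC promotes the same transition and ribosome production, and AP-1 is a long-known regulator of cyclin D1. Much of this control acts on protein stability and phosphorylation, which RNA counts do not measure.

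The letters before the transcription starts of the members were read from the RefSeq table of promoters on GRCh38.p14, which gives 250 bases before and 50 bases after a start. Windows of 7 of the 10 members were read, 10 windows in all. MYC was left out of the search beforehand, and the table held no window of CCND1 or CDK2. Windows were searched on both strands for the AP-1 motif TGAGTCA, the E2F motif TTTNNCGC and the E-box CACGTG, which MYC with MAX binds. TGAGTCA was in 0 of the 10 windows, and is in 4.95% of all 35116 windows of the table. The E2F motif, present in 6.89% of all windows, was found at E2F1 alone among the members searched, with 4 matches of which the last pair overlap. The E-box, present in 7.26% of all windows, was found at CDK4 with 3 matches and at the first of the CDK6 windows with 1. Such matches describe letters in these windows and say nothing of binding. The windows of CDK6, the 1 member that passed the test, and those of E2F1 and CDK4, which hold the matches, follow with the matches in capitals. All are written 5′ to 3′ on the minus strand, at chr7:92836524-92836823 and chr7:92833910-92834209 for CDK6, chr20:33686336-33686635 for E2F1 and chr12:57752261-57752560 for CDK4.
CDK6 window 1: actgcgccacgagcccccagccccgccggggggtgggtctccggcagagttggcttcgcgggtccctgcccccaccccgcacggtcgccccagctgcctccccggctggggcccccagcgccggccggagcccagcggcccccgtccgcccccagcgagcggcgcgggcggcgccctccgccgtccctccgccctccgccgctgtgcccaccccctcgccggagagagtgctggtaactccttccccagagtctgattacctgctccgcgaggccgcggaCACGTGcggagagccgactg
CDK6 window 2: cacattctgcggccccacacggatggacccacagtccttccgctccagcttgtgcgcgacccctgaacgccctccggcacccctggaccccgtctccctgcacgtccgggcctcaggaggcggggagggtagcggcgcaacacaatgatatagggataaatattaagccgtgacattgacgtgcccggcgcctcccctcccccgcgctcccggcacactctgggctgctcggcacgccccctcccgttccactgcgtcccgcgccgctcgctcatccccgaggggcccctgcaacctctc
E2F1: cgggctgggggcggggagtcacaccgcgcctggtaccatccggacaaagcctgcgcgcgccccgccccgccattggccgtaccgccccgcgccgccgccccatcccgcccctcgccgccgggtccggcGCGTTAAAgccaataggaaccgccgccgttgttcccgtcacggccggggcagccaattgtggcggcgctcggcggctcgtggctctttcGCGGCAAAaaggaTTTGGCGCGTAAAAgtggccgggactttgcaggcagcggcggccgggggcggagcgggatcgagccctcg
CDK4: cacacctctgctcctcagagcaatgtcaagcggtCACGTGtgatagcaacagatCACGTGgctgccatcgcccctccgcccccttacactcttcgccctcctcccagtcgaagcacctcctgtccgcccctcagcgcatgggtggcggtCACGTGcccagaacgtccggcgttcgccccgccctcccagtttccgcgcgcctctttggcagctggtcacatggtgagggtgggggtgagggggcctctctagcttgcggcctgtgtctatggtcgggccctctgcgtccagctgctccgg

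Library totals lay between 6893026 and 10604251 counts. Values below are CPM, counts scaled to a common library total with TMM, an edgeR normalization. Statements on whether the levels of groups overlap are on this TMM scale unless said otherwise. A gene with 0 counts could still be present at up to 3 counts, which is 0.283 to 0.435 CPM in these libraries by library totals, before TMM scaling. FOSL1 itself was at 72.3, 70.3 and 44.9 CPM with FOSL1sh3, at 70.9, 57.1 and 65.8 CPM with FOSL1sh10, against 303, 257 and 182 CPM in GFPsh. The means with the hairpins were 25.3% and 26.1% of the GFPsh mean, and the hairpins did not differ from each other in FOSL1 beyond the spread (log2 difference -0.05, 95% interval -0.46 to 0.36). The line was positive for the biliary and epithelial markers KRT19 (3120 to 5160 CPM over all libraries) and EPCAM (655 to 1160 CPM), while SPP1 and CFTR of the same list had no more than 2 counts in all. Of the leukocyte, fibroblast, endothelial and hepatocyte lists, COL3A1, DCN, CD3E and CYP3A4 had 0 counts in every library and the summed level of any list was at most 8.86 CPM. The endothelial sum (4 genes, none at 0 in all libraries) was 0.577 to 1.33 CPM with FOSL1sh3 and 3.42 to 3.67 CPM with FOSL1sh10, against 0.772 to 1.10 CPM in GFPsh. The leukocyte sum (429 of its 432 counts from CD14) was 5.23 to 6.78 CPM with FOSL1sh3 and 5.13 to 8.86 CPM with FOSL1sh10, against 2.93 to 4.52 CPM in GFPsh. The fibroblast sum, all from COL1A1, was 2.98 to 6.87 CPM with FOSL1sh3 and 4.71 to 5.91 CPM with FOSL1sh10, against 2.14 to 3.97 CPM in GFPsh. The part of such cells in the results was not tested.

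**Figure D1:**
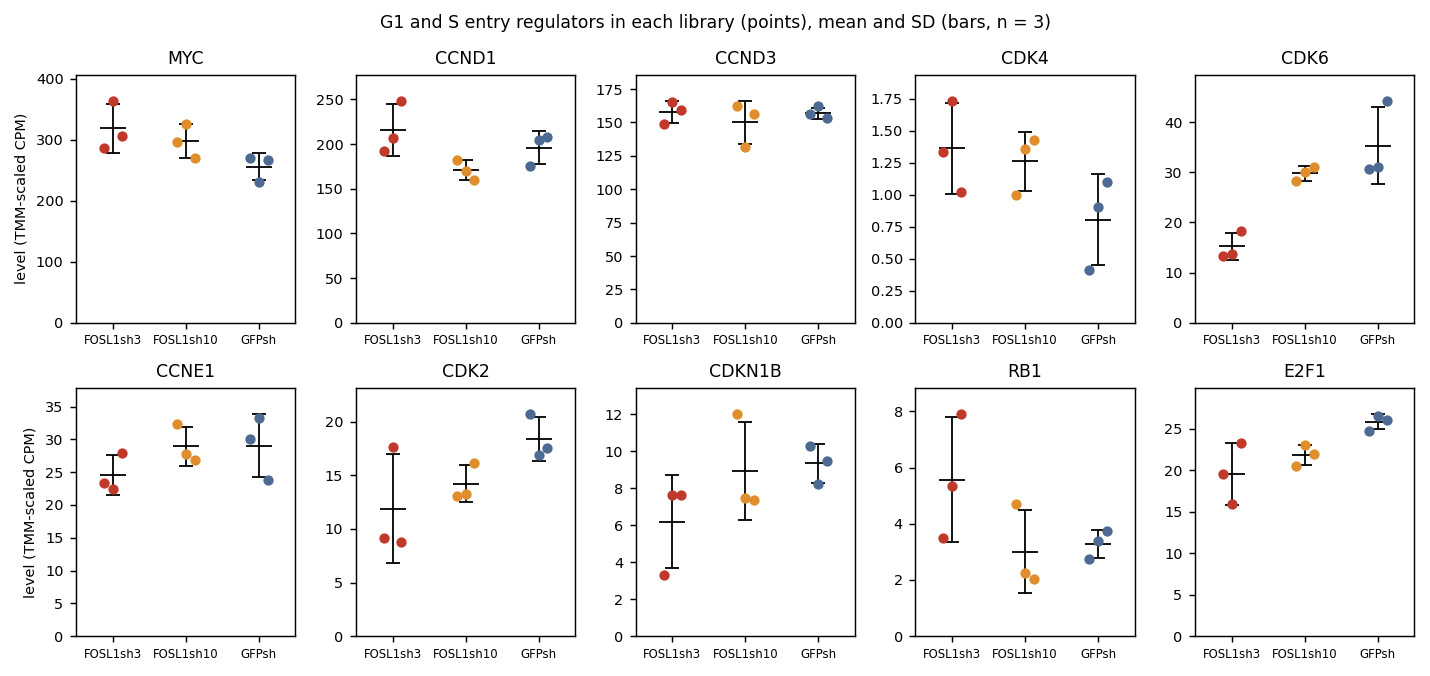
Level of each of the 10 regulators in every library, in TMM-scaled CPM on the vertical axis, for FOSL1sh3, FOSL1sh10 and GFPsh; points are libraries, the long bar is the mean and the whiskers are 1 SD (n = 3). The FOSL1sh3 libraries of CDK6 lie at 13.4 to 18.3 CPM, apart from both other groups, and E2F1 in GFPsh lies above all 6 FOSL1 hairpin libraries.

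The comparison of FOSL1sh3 with GFPsh asks what the first hairpin does to these regulators. CDK6 fell, to 43.1% of its GFPsh level, and was the only member called. That is 1 of 10, where 10.9% of all genes tested were called in the same edgeR quasi-likelihood fit (adjusted p under 0.05), and 5.65% of all genes were called lower. MYC lay higher and E2F1, CDK2 and CDKN1B lay lower in fitted value, none of them called. An unadjusted p under 0.05 was reached by 4 of the 10 members (CDK6, CDK2, E2F1 and MYC) and by 26.9% of all genes. The median log2 fold change of the 10 members was -0.12, beside 0.01 for all genes. It takes in CDK4, which passed the filter only through hairpin libraries, and with only the groups compared in the fit CDK4 was not tested and the median of the other 9 was -0.23, beside 0.02 for all genes. Library by library, MYC was above all GFPsh libraries and CDK6, CDKN1B and E2F1 were below them all, which makes 4 of 10 whose groups did not overlap, against 29.2% of all genes. By library totals alone MYC overlapped GFPsh.

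The comparison of FOSL1sh10 with GFPsh puts the same question to the second hairpin and shares its 3 control libraries with the first, so the pair of comparisons is not independent. No member was called by edgeR, by DESeq2, or at an unadjusted p under 0.05 (0 of 10 in each case), where edgeR called 5.28% of all genes and 19.4% had an unadjusted p under 0.05. The median of the members was -0.13, beside 0.00 for all genes, and -0.18 over the 9 members tested with only the groups compared. Scaling moves this comparison. With library totals alone in place of TMM the median of all genes was 0.11 (log2), beside 0.00 with TMM, and the members' median became -0.03. On the TMM scale MYC was above all GFPsh libraries and CDK2 and E2F1 were below them all, 3 of 10 members, against 27.3% of all genes. By library totals alone CDK2 and E2F1 overlapped GFPsh and MYC did not, and the share of all genes was not recounted.

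Taking both hairpins together, CDK6 was again the 1 member called of 10, where 6.22% of all genes were called and 2.97% were called lower. On the TMM scale MYC lay above and E2F1 below the GFPsh range in all 6 libraries, 2 of 10 members, against 9.66% of all genes (5.27% above and 4.39% below). By library totals alone both of these members overlapped the GFPsh range, and the share of all genes was not recounted. Set directly against each other, FOSL1sh3 and FOSL1sh10 differed in CDK6, 1 of 10 members, where 12.7% of all genes were called and 7% were called lower. Their ranges did not overlap for CCND1 and CDK6, 2 of 10, against 30.7% of all genes. These shares are near the background, so the counts describe the members and do not set them apart from other genes.

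**Figure D2:**
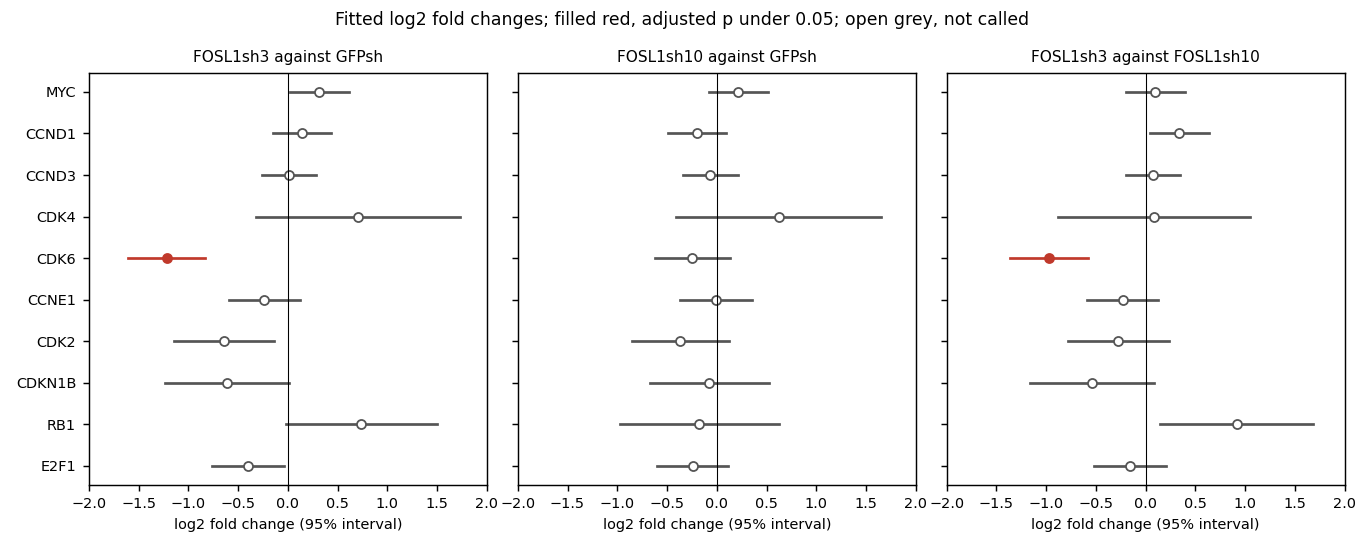
Fitted log2 fold change of each regulator with its 95% interval (horizontal axis) for FOSL1sh3 against GFPsh, FOSL1sh10 against GFPsh and FOSL1sh3 against FOSL1sh10; filled red points have an adjusted p under 0.05 in edgeR and open points do not. CDK6 is filled in the first panel (-1.22) and the third (-0.97) and open in the second (-0.24).

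MYC, the transcription factor that drives growth and cell cycle entry, was at 286, 363 and 306 CPM with FOSL1sh3, at 296, 326 and 270 CPM with FOSL1sh10, and at 270, 231 and 266 CPM in GFPsh. On the TMM scale all 6 hairpin libraries were above all 3 controls, by the narrowest margin at 270.2 CPM in the lowest hairpin library against 270.1 CPM in the highest control. By library totals alone FOSL1sh3 replicate 1 (2785 of 10604251 counts) was below GFPsh replicate 1 (1958 of 7259635 counts). The mean was 318.3 ± 39.8 CPM with FOSL1sh3 and 297.3 ± 28 CPM with FOSL1sh10, against 255.7 ± 21.6 CPM in GFPsh (SD, n = 3 each). The log2 fold changes were 0.32 (95% interval 0.02 to 0.61, edgeR adjusted p = 0.155) and 0.22 (-0.08 to 0.51, adjusted p = 0.435). MYC therefore did not pass the test over all genes with either hairpin, although its own interval with FOSL1sh3 lies above 0. A missed threshold does not show that a level was unaltered, and the interval leaves room for a rise of up to 0.61. The gene lies at chromosome 8, 127735434 to 127741434, plus strand (hg38).

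CCND1, cyclin D1, is a D-type cyclin and partner of CDK4 and CDK6 (chromosome 11, 69641087 to 69654474, plus strand). It was at 192, 207 and 248 CPM with FOSL1sh3, at 182, 170 and 160 CPM with FOSL1sh10, against 175, 205 and 208 CPM in GFPsh. Every FOSL1sh3 library was above every FOSL1sh10 library, with the GFPsh libraries overlapping both. Against GFPsh the log2 fold change was 0.14 with FOSL1sh3 (-0.15 to 0.43, edgeR adjusted p = 0.565) and -0.20 with FOSL1sh10 (-0.49 to 0.09, adjusted p = 0.480), and between the hairpins it was 0.34 (0.05 to 0.63, adjusted p = 0.119). None of these was called, and the intervals against GFPsh reach down to -0.15 with FOSL1sh3 and -0.49 with FOSL1sh10. CCND3, cyclin D3 (chromosome 6, 41934933 to 42050357, minus strand), was at 149, 165 and 159 CPM with FOSL1sh3 and 162, 132 and 156 CPM with FOSL1sh10, against 156, 162 and 153 CPM in GFPsh. Its log2 fold changes of 0.01 (-0.26 to 0.28) and -0.06 (-0.34 to 0.21) were within the spread between libraries, and their sign turned under other settings. CCND2, the remaining D-type cyclin, had 4 counts over all 9 libraries and was not tested.

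The balance of the D-type cyclins was read as the share of CCND1 among the counts of CCND1 and CCND3, which is not corrected for gene length. That share was 56.3%, 55.7% and 61.0% with FOSL1sh3 and 53.0%, 56.3% and 50.6% with FOSL1sh10, against 52.9%, 56.0% and 57.5% in GFPsh. The groups overlapped. The widest Wilson 95% interval of a single library was 50.9% to 54.9%, in GFPsh replicate 1, and like the floors these intervals cover counting error only. Of the exonic bases of CCND1, 10.3% are also exons of LTO1, including 253 of its last 500, and the part of such bases in its counts was not tested.

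CDK6, the cyclin D-dependent kinase whose promoter windows are shown above, phosphorylates RB1 and lies at chromosome 7, 92604921 to 92836594, on the minus strand. It was at 13.4, 13.8 and 18.3 CPM with FOSL1sh3, at 28.2, 30.1 and 31.1 CPM with FOSL1sh10, against 30.6, 31.1 and 44.2 CPM in GFPsh. The 3 FOSL1sh3 libraries were below all 6 others, whereas FOSL1sh10 overlapped GFPsh, whose replicate 3 stood above the rest. Counts behind these values were 131, 96 and 144 with FOSL1sh3 and 198, 266 and 305 with FOSL1sh10, against 222, 276 and 401 in GFPsh. CDK6 fell with FOSL1sh3 by 1.22 on the log2 scale (SE 0.185, 95% interval -1.61 to -0.83, edgeR adjusted p = 0.0005934). In these bulk libraries, less CDK6 RNA per cell and fewer cells that express it cannot be told apart.

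With FOSL1sh10 the log2 fold change of CDK6 was -0.24 (SE 0.178, -0.62 to 0.13, edgeR adjusted p = 0.503), a mean of 29.80 ± 1.44 CPM against 35.29 ± 7.71 CPM in GFPsh (SD, n = 3 each). The difference between the hairpins was itself called, at -0.97 (SE 0.186, -1.36 to -0.58, edgeR adjusted p = 0.002588). FOSL1 RNA was at 25.3% of its GFPsh mean with FOSL1sh3 and 26.1% with FOSL1sh10, and FRA-1 protein was not measured. What part the FOSL1 level has in the CDK6 difference was not tested. The fall of CDK6 with FOSL1sh3 and its difference between hairpins were called in 15 of 15 alternative settings each. The mean of both hairpins, -0.73 (adjusted p = 0.0077), was not called without GFPsh replicate 3 (-0.54, adjusted p = 0.0902). Over the 9 libraries and 9967 genes with at least 30 counts on average, the genes whose log2 CPM followed CDK6 most closely were SDR16C5 (Pearson r = 0.964), CDKN1A (0.958) and CA2 (0.957). These r describe 9 libraries that share groups and depth. The genes were picked for their likeness to CDK6 in these same libraries. Fold changes like those of CDK6 therefore follow from the choice and add no support to its fall. SDR16C5, a retinol dehydrogenase, had log2 fold changes of -0.79 with FOSL1sh3 (adjusted p = 0.0036) and -0.14 with FOSL1sh10 (adjusted p = 0.686), and CA2, a carbonic anhydrase, had -1.41 (adjusted p = 0.0002465) and -0.22 (adjusted p = 0.564).

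CDK4, the other cyclin D-dependent kinase (chromosome 12, 57747727 to 57756013, minus strand), was barely counted. It had 13, 12 and 8 counts with FOSL1sh3 and 7, 12 and 14 counts with FOSL1sh10, against 3, 8 and 10 counts in GFPsh. The groups overlapped. It passed the filter through 2 FOSL1sh3 and 2 FOSL1sh10 libraries at or above 1.22 CPM and 0 GFPsh libraries, so that a gene with these counts had to lie higher with the hairpins to be tested at all. The fitted log2 fold changes were 0.71 (-0.32 to 1.73, edgeR adjusted p = 0.384) and 0.62 (-0.41 to 1.65, adjusted p = 0.544), with intervals that span 0 and reach past 1. All of the last 500 exonic bases of CDK4, and 43.2% of its 3168 exonic bases, are also exons of TSPAN31 on the opposite strand. The counting command in the file headers sets no strand and leaves reads in more than 1 gene unassigned by default, and the libraries were made by a protocol that reads near the 3′ end of transcripts. What part this overlap has in the CDK4 counts was not tested. TSPAN31, a tetraspanin gene, was at 14.8, 7.93 and 9.67 CPM with FOSL1sh3 and 7.99, 8.14 and 9.48 CPM with FOSL1sh10, against 7.31, 8.67 and 7.72 CPM in GFPsh. It was not called with either hairpin (edgeR adjusted p = 0.225 and 0.857). No statement on the RNA level of CDK4 can be made from these counts.

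**Figure D3:**
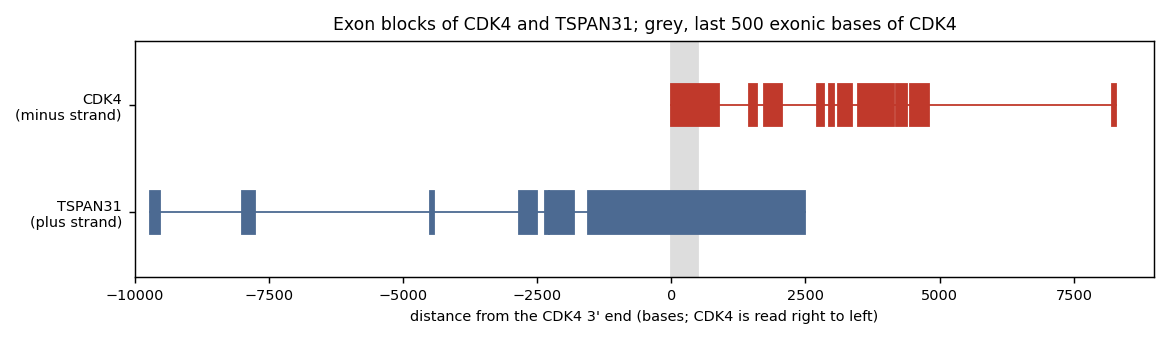
Exon blocks of CDK4 (red, minus strand) and TSPAN31 (blue, plus strand) by distance in bases from the 3′ end of CDK4 (horizontal axis), from the exons in the count tables; the grey band marks the last 500 exonic bases of CDK4. The last exon of TSPAN31 spans the whole grey band.

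CCNE1, cyclin E1 (chromosome 19, 29811898 to 29824308, plus strand), was at 23.4, 22.4 and 28 CPM with FOSL1sh3 and 32.4, 27.7 and 26.8 CPM with FOSL1sh10, against 30.1, 33.2 and 23.8 CPM in GFPsh. The groups overlapped, and the log2 fold changes were -0.24 (-0.60 to 0.12, edgeR adjusted p = 0.398) and -0.01 (-0.37 to 0.36, adjusted p = 0.991). CDK2, the kinase that cyclin E and cyclin A activate (chromosome 12, 55966769 to 55972784, plus strand), was at 9.13, 17.7 and 8.78 CPM with FOSL1sh3 and 13.1, 13.3 and 16.2 CPM with FOSL1sh10, against 20.7, 16.9 and 17.6 CPM in GFPsh. FOSL1sh3 replicate 2 lay inside the GFPsh range and apart from the other libraries of its group. All FOSL1sh10 libraries were below all GFPsh libraries on the TMM scale, but not by library totals alone.

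The log2 fold changes of CDK2 were -0.64 with FOSL1sh3 (SE 0.238, -1.14 to -0.14, edgeR adjusted p = 0.090) and -0.37 with FOSL1sh10 (-0.86 to 0.13, adjusted p = 0.433). It was therefore not called, and the alternatives go both ways around these values. Without FOSL1sh3 replicate 2 the value with FOSL1sh3 was -1.04 (adjusted p = 0.0047), the mean of both hairpins was -0.70 (adjusted p = 0.0137), and the hairpins differed by -0.67 (adjusted p = 0.0416). With no filter on low counts the value with FOSL1sh3 also passed (-0.66, adjusted p = 0.0473). Other alternatives weakened it. Over 15 of them the value with FOSL1sh3 reached -0.47 (adjusted p up to 0.280) and was called in 2. Over 14 the mean of both hairpins reached -0.41 (adjusted p up to 0.414) and was called in 1. Between the hairpins the value reached -0.11 (adjusted p up to 0.829) and was called in 1 of 15. The share of CDK6 among the counts of CDK6 and CDK2 was 59.5%, 43.8% and 67.6% with FOSL1sh3 and 68.3%, 69.3% and 65.7% with FOSL1sh10, against 59.7%, 64.8% and 71.5% in GFPsh, and FOSL1sh3 replicate 2 was the lowest. Of the exonic bases of CDK2 16.8% are also exons of other genes, but 0 of its last 500.

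CDKN1B encodes p27, which inhibits cyclin E with CDK2 (chromosome 12, 12715058 to 12722371, plus strand). It was at 3.28, 7.65 and 7.64 CPM with FOSL1sh3 and 12, 7.46 and 7.34 CPM with FOSL1sh10, against 10.3, 8.22 and 9.48 CPM in GFPsh. The FOSL1sh3 libraries were below all controls, with replicate 1 the lowest, and FOSL1sh10 reached both above and below the control range. The log2 fold changes were -0.61 (-1.23 to 0.01, edgeR adjusted p = 0.193) and -0.08 (-0.67 to 0.52, adjusted p = 0.924), neither called. Without FOSL1sh3 replicate 1 the first was -0.29 (adjusted p = 0.542). RB1, the retinoblastoma protein that binds E2F (chromosome 13, 48303726 to 48599436, plus strand), rested on 20 to 62 counts a library. It was at 3.49, 5.34 and 7.89 CPM with FOSL1sh3 and 4.71, 2.26 and 2.04 CPM with FOSL1sh10, against 2.76, 3.38 and 3.75 CPM in GFPsh. The groups overlapped, and FOSL1sh3 spread more than the others (SD 2.21 CPM with FOSL1sh3 and 1.48 CPM with FOSL1sh10, against 0.499 CPM in GFPsh).

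RB1 was not called with FOSL1sh3 (log2 fold change 0.74, -0.02 to 1.49, edgeR adjusted p = 0.198), with FOSL1sh10 (-0.18, -0.98 to 0.62, adjusted p = 0.859) or between them (0.91, 0.15 to 1.68, adjusted p = 0.109). Leaving out FOSL1sh10 replicate 1, the highest library of its group, brought the difference between hairpins to 1.36 (adjusted p = 0.039). Leaving out FOSL1sh3 replicate 3, the highest library, brought it to 0.57 (adjusted p = 0.399) and the value with FOSL1sh3 to 0.39 (adjusted p = 0.602). E2F1, the activating E2F factor whose gene is itself a target of E2F (chromosome 20, 33675683 to 33686404, minus strand), was at 19.5, 15.9 and 23.3 CPM with FOSL1sh3 and 20.5, 23 and 22 CPM with FOSL1sh10. In GFPsh it was at 24.8, 26.6 and 26.1 CPM. On the TMM scale all 6 hairpin libraries were below all 3 controls. By library totals alone FOSL1sh10 replicate 2 (203 of 8060471 counts) was above GFPsh replicate 1 (180 of 7259635 counts). The log2 fold changes were -0.40 (-0.76 to -0.04, edgeR adjusted p = 0.138) with FOSL1sh3, -0.24 (-0.60 to 0.11, adjusted p = 0.483) with FOSL1sh10 and -0.32 (-0.63 to -0.02, adjusted p = 0.205) for their mean. E2F1 was thus below all controls in 6 of 6 libraries on the TMM scale but not by library totals. It was called in none of these comparisons.

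Around the members, 7 lists of pathway genes gave a wider view, each described by its calls and its median beside that of all genes, with no test of the list. For orientation, the medians of all genes were 0.01 with FOSL1sh3 and 0.00 with FOSL1sh10, and edgeR called 10.9% of all genes with FOSL1sh3, 5.28% with FOSL1sh10 and 12.7% between the hairpins. Of 9 other G1 and S cyclins, kinases and parts of the CDK-activating kinase, 5 were tested, and all 5 had negative fold changes in both comparisons (medians -0.55 with FOSL1sh3 and -0.22 with FOSL1sh10; with library totals alone 4 of 5 with FOSL1sh10). CCNA2, cyclin A2, which partners CDK2 in S phase, fell with FOSL1sh3 to 18.70 ± 5.21 CPM, against 39.71 ± 4.57 CPM in GFPsh (SD, n = 3 each; log2 fold change -1.09, SE 0.205, edgeR adjusted p = 0.0031). Its level with FOSL1sh10 was 29.88 ± 6.82 CPM (-0.40, adjusted p = 0.278), and all 6 hairpin libraries were below all controls. CCNH, cyclin H of the CDK-activating kinase, fell with FOSL1sh3 (-0.55, adjusted p = 0.0159; not called without GFPsh replicate 1, adjusted p = 0.0753), and was at -0.09 with FOSL1sh10 (adjusted p = 0.783). CDC25A, the phosphatase that activates CDK2, was at -0.56 (adjusted p = 0.165) and -0.22 (adjusted p = 0.689). Of these 5 genes edgeR and DESeq2 each called 0 with FOSL1sh10, and 0 had an unadjusted p under 0.05.

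The CDK inhibitors moved in opposite directions. Of 7 listed, 5 were tested, and with FOSL1sh3 1 rose and 2 fell. CDKN1C, p57, was at 126, 127 and 121 CPM with FOSL1sh3 and 75.6, 47.9 and 57.0 CPM with FOSL1sh10, against 42.8, 46.8 and 36.4 CPM in GFPsh. It was above all controls in all 6 hairpin libraries, with log2 fold changes of 1.57 (SE 0.164, edgeR adjusted p = 1.78e-05) with FOSL1sh3 and 0.52 (adjusted p = 0.0749) with FOSL1sh10. CDKN1A, p21, was at 123, 109 and 123 CPM with FOSL1sh3 and 200, 234 and 216 CPM with FOSL1sh10, against 252, 235 and 262 CPM in GFPsh. It fell with FOSL1sh3 (-1.07, SE 0.132, adjusted p = 9.305e-05) and was at -0.20 with FOSL1sh10 (adjusted p = 0.426). CDKN3, a phosphatase that acts on CDK2, fell with FOSL1sh3 (-0.81, adjusted p = 0.0371), but not without any 1 of the GFPsh libraries or FOSL1sh3 replicate 3 (adjusted p 0.0587 to 0.13). With FOSL1sh10 edgeR and DESeq2 each called 0 of these 5, of which 3 had an unadjusted p under 0.05. The calls of CDKN1C and CDKN1A with FOSL1sh3, and their differences between hairpins (1.06, adjusted p = 0.0004098, and -0.87, adjusted p = 0.0003812), held in 15 of 15 alternatives each. CDKN2A and CDKN2B, the genes of p16 and p15, had 0 counts in all 9 libraries.

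Of 15 genes of the RB and E2F families 14 were tested. With FOSL1sh3 TFDP1, the dimer partner of E2F factors, fell (-0.54, edgeR adjusted p = 0.0208), a call that ended without GFPsh replicate 1, FOSL1sh3 replicate 1 or FOSL1sh3 replicate 3 (adjusted p 0.058 to 0.104). With FOSL1sh10 edgeR and DESeq2 called 0 of 14, and 1 had an unadjusted p under 0.05. The 3 genes with the smallest p for the mean of both hairpins were RBL2 (p130, a relative of RB1), E2F5 and LIN9, none called. RBL2 was at 3.56 ± 0.563 CPM with FOSL1sh3 and 2.98 ± 0.907 CPM with FOSL1sh10, against 1.79 ± 1.02 CPM in GFPsh (SD, n = 3 each). E2F5 rested on 6 to 22 counts a library. It had 6, 7 and 7 counts in GFPsh, all under the filter's 1.22 CPM, and passed through the hairpin libraries alone (2.26 and 1.73 CPM with FOSL1sh3 and 1.71 CPM with FOSL1sh10), so that with these control counts it had to lie higher with the hairpins to be tested. Between the hairpins edgeR called 5 of the 14 (35.7%, beside 12.7% of all genes) and DESeq2 4: E2F7, E2F8 and TFDP1 were lower and E2F4 and TFDP2 higher with FOSL1sh3. Of these the call of TFDP1 (-0.71, adjusted p = 0.0031) held in 15 of 15 alternatives and that of TFDP2 (0.64, adjusted p = 0.0113) in 14 of 15, the exception being without FOSL1sh10 replicate 2 (adjusted p = 0.0512). The calls of E2F4 (0.49), E2F7 (-1.60) and E2F8 (-0.65) ended when any 1 of 5, 6 and 5 libraries was left out, FOSL1sh10 replicates 2 and 3 among them (adjusted p up to 0.179, 0.166 and 0.156), and that of E2F7 also with DESeq2.

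Of 17 ubiquitin ligase and deubiquitinase genes that act on cyclin D, cyclin E, p27 or MYC, all were tested and 2 fell with FOSL1sh3, SKP2 among them. SKP2, the ligase subunit that targets p27, was at 25, 31.3 and 24.8 CPM with FOSL1sh3 and 41.9, 34.9 and 36.8 CPM with FOSL1sh10, against 46.3, 46.9 and 45.0 CPM in GFPsh. The groups were fully separate, and the log2 fold change with FOSL1sh3 was -0.77 (SE 0.149, edgeR adjusted p = 0.0038), called in 15 of 15 alternatives, and with FOSL1sh10 it was -0.28 (adjusted p = 0.304). With FOSL1sh10 edgeR called 0 of the 17 and DESeq2 1, and 2 had an unadjusted p under 0.05. USP36, a deubiquitinase of MYC, was at 0.26 with FOSL1sh3 (adjusted p = 0.227) and 0.46 with FOSL1sh10 (adjusted p = 0.0535). DDB1, a cullin adaptor, was at 0.34 (adjusted p = 0.162) and 0.17 (adjusted p = 0.604).

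The E2F target genes of G1 and S, 42 tested of 43, leaned lower. With FOSL1sh3 31 of 42 had a negative fold change (median -0.18) and with FOSL1sh10 34 of 42 (median -0.20); with library totals alone these became 35 (median -0.25) and 29 (median -0.10), with the medians of all genes at -0.06 and 0.11. With FOSL1sh3 4 fell and 0 rose, and with FOSL1sh10 3 fell and 0 rose, shares of 9.52% and 7.14% beside 5.65% and 2.15% of all genes called lower. With FOSL1sh3 the genes called were CCNA2, the replication licensing factor CDC6 (-0.56, edgeR adjusted p = 0.0348) and the ribonucleotide reductase subunits RRM1 (-0.58, adjusted p = 0.0347) and RRM2 (-0.43, adjusted p = 0.0491). With FOSL1sh10 they included the helicase subunit MCM4 (-0.51, adjusted p = 0.0405) and the nucleotide enzyme DUT (-0.61, adjusted p = 0.0218). DUT was at 315.7 ± 35.4 CPM with FOSL1sh3 and 239.8 ± 32.1 CPM with FOSL1sh10, against 365.3 ± 49.8 CPM in GFPsh (SD, n = 3 each).

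Among these E2F targets the call of CCNA2 held in 15 of 15 alternatives and the other calls named did not. CDC6, RRM1 and RRM2 lost theirs when any 1 of 6, 4 and 8 libraries was left out (adjusted p 0.0501 to 0.132, 0.0571 to 0.187 and 0.051 to 0.175), in each case including GFPsh replicate 1, GFPsh replicate 3 and FOSL1sh3 replicate 3. All 3 calls also ended with only the groups compared, and that of RRM2 with no low-count filter. MCM4 and DUT lost theirs when any 1 of 6 and 4 libraries was left out (adjusted p 0.0658 to 0.171 and 0.0524 to 0.129), in each case including GFPsh replicate 2, GFPsh replicate 3, FOSL1sh10 replicate 2 and FOSL1sh10 replicate 3, and the call of MCM4 also ended with library totals alone. Taking both hairpins together, 36 of 42 were negative (median -0.20, all genes -0.01) and CCNA2 and RRM1 were called; CCNA2 was not without GFPsh replicate 1 (adjusted p = 0.1), and RRM1 was not when any 1 of 6 libraries was left out (adjusted p 0.0612 to 0.29).

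**Figure D4:**
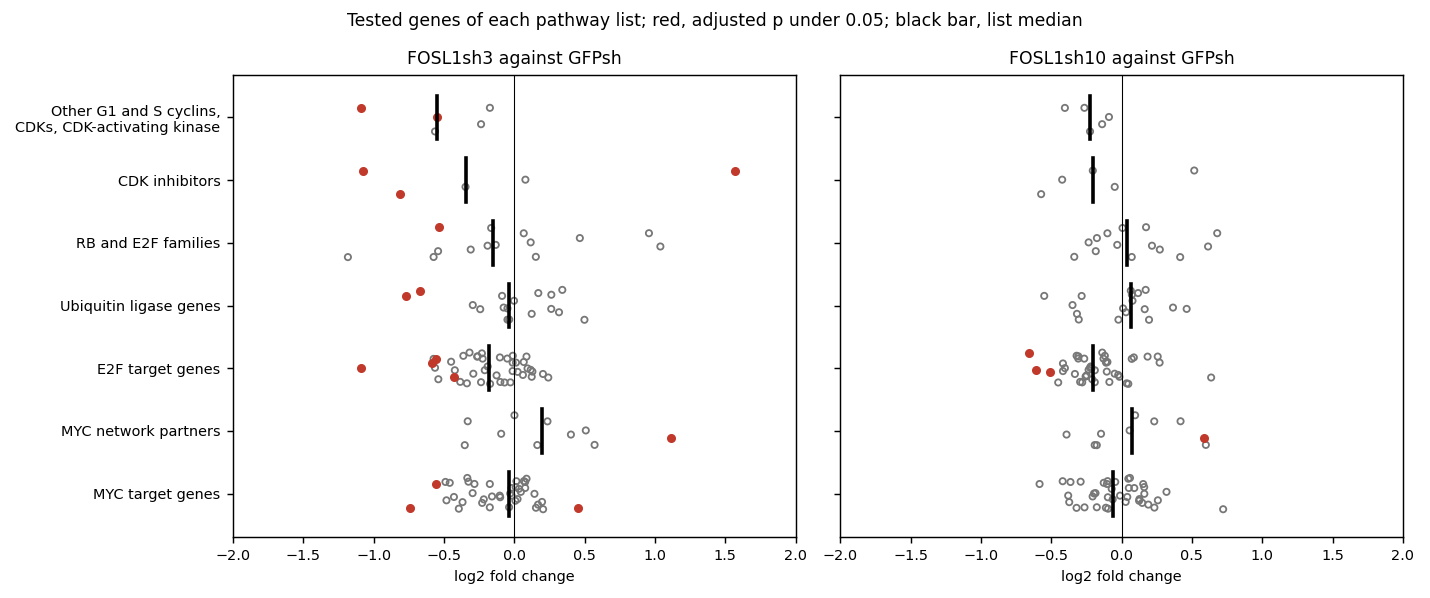
Log2 fold change (horizontal axis) of each tested gene of the 7 pathway lists (rows), for FOSL1sh3 against GFPsh on the left and FOSL1sh10 against GFPsh on the right; red points have an adjusted p under 0.05 in edgeR and the black bar is the median of the list. CDKN1C (1.57) lies apart at the right of the CDK inhibitors with FOSL1sh3, and the bar of the E2F targets is at -0.18 and -0.20.

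The partners of MYC in its network were represented by 10 tested genes of 13. MXD4, a MAX partner that opposes MYC, was at 63.6, 65.5 and 70.2 CPM with FOSL1sh3 and 49.5, 43.7 and 45.6 CPM with FOSL1sh10, against 29.1, 30.4 and 32.6 CPM in GFPsh. All 6 hairpin libraries were above all controls and the groups did not overlap each other. MXD4 rose with FOSL1sh3 (log2 fold change 1.11, SE 0.135, edgeR adjusted p = 8.63e-05) and with FOSL1sh10 (0.59, SE 0.135, adjusted p = 0.0138), and was the 1 gene of the list called in each. The first call held in 15 of 15 alternatives. The second ended without GFPsh replicate 1 or 2 or FOSL1sh10 replicate 1 or 3 (0.54 to 0.59, adjusted p 0.055 to 0.0811). MXI1, of the same family of MAX partners, was above all controls in 6 of 6 libraries and not called (0.57, adjusted p = 0.0935, and 0.60, adjusted p = 0.116). MLX, the partner of MondoA, was below all controls in 6 of 6 libraries and not called (-0.35, adjusted p = 0.113, and -0.18, adjusted p = 0.545).

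Of 40 MYC target genes 39 were tested, and their medians were -0.04 with FOSL1sh3 and -0.06 with FOSL1sh10, close to those of all genes; with library totals alone the second became 0.04. With FOSL1sh3 1 rose and 2 fell, 7.69% of the 39 beside 10.9% of all genes. With FOSL1sh10 edgeR called 0, beside 5.28% of all genes, and DESeq2 1, with 6 of 39 at an unadjusted p under 0.05, beside 19.4% of all genes. NOP58, a nucleolar protein of ribosomal RNA modification, fell with FOSL1sh3 to 78.8 ± 18.0 CPM, against 132.0 ± 11.7 CPM in GFPsh (SD, n = 3 each; -0.75, SE 0.162, edgeR adjusted p = 0.0076), called in 15 of 15 alternatives, and was at -0.32 with FOSL1sh10 (adjusted p = 0.284). ODC1, the first enzyme of polyamine synthesis, fell with FOSL1sh3 (-0.56, edgeR adjusted p = 0.0143), but was not called without GFPsh replicate 1 (-0.54, adjusted p = 0.0663). With FOSL1sh10 ODC1 was at 0.15 (adjusted p = 0.594). Its difference between the hairpins was called (-0.71, adjusted p = 0.0025), in 15 of 15 alternatives. CAD, the pyrimidine synthesis enzyme, was called higher (0.46, adjusted p = 0.0382), but not without 8 of the 9 libraries taken singly (adjusted p 0.0533 to 0.144), all but FOSL1sh3 replicate 2. MRTO4, a ribosome assembly factor, was below all controls in 6 of 6 libraries and not called (-0.33, adjusted p = 0.124, and -0.29, adjusted p = 0.237).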

How the data were processed

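RNA of 9 EGI-1 libraries was measured. For each library the authors deposited raw counts by gene, not normalized. Per the submitters' processing notes, FastQC 0.11.5 served for read quality, STAR 2.5.3a for alignment and hg38 as the build, and the notes list edgeR and limma too. Per the file headers, reads over exons were counted with featureCounts 1.6.0 on GENCODE release 28, and the command sets neither strandedness nor the handling of duplicates or multi-mapping reads. Per the labels, libraries followed a low-input protocol (MARS-seq), and the sources used here do not say whether molecular identifiers were collapsed, so floors and intervals cover counting error only.

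The test was the quasi-likelihood F test of edgeR 4.0.16 (R 4.3.3; limma 3.58.1) after TMM scaling, with 1 model for all 9 libraries and no term but the group. Genes passed the default filter at a count of 10 and a total of 15. Adjustment was by Benjamini-Hochberg over 12814 genes, with calls under 0.05. Sample titles gave the groups and replicate numbers. SE is the absolute log2 fold change divided by the root of F, and 95% intervals follow from it and the p-value. Coordinates are hg38 as the files give them, and 57754 of 58381 identifiers matched a symbol. Libraries of a group differed by more than counting noise in each of 9 pairs (chi-square per degree of freedom 9.36 to 30.92). On simulated data edgeR called 34.3% of 1.5-fold changes with FOSL1sh3 and 17.9% with FOSL1sh10. It called 88.1% and 86.6% of 2-fold changes. Changes of 1.5-fold were thus mostly missed there. Alternatives were DESeq2 1.42.0 and its size factors, library totals alone, no filter, a replicate block, the compared groups alone, and leaving out each library. Named genes were FOSL1, the 10 members, the 3 genes with the smallest p for the mean of both hairpins in each list, and the 3 genes most correlated with a called member. Other called list genes were named after their values were seen, as were the alternatives for list genes. The members and lists were chosen with earlier results of these data known. Some listed genes are counted but not reported here by name.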

Additional observations from a re-analysis of the deposited data

Results flagged for a closer look

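By a direct test, FOSL1sh3 against FOSL1sh10 in edgeR, the responses to the hairpins differed in CDK6, 1 of 10 members. They also differed in listed genes that the text names by rule. In the same test 12.7% of all 12814 genes were called. The listed genes were named for a small p for the mean of both hairpins, so their calls cannot be set against that share. For CDK6 the log2 difference was -0.97 (adjusted p = 0.002588). It was -0.69 for CCNA2 (adjusted p = 0.0348), -0.46 for CCNH (adjusted p = 0.0327), -0.87 for CDKN1A (adjusted p = 0.0003812) and -0.49 for SKP2 (adjusted p = 0.0397), all lower with FOSL1sh3. It was 1.06 for CDKN1C (adjusted p = 0.0004098) and 0.52 for MXD4 (adjusted p = 0.0151), higher with FOSL1sh3. FOSL1 itself was not called between the hairpins. Listed genes outside the rule were called too. Among them TFDP1 (-0.71, adjusted p = 0.0031), ODC1 (-0.71, adjusted p = 0.0025) and MNT of the MYC network list (0.79, adjusted p = 0.0092) were called in 15 of 15 alternatives. MNT was at 0.40 with FOSL1sh3 and -0.39 with FOSL1sh10, called in neither. The differences of CDK6, CDKN1A and CDKN1C were called in 15 of 15 alternatives. Those of CCNA2, CCNH, SKP2 and MXD4 were called in 10, 7, 6 and 12 of 15, and their adjusted p without a single library reached 0.177, 0.179, 0.143 and 0.0775.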

How the results depend on the processing

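Of 587 alternative values of the members, 556 kept direction and side of the threshold, 25 changed sign without being called, 5 passed the threshold and 1 lost it. With library totals alone, CCND3 was at -0.0585 with FOSL1sh3, 0.036 with FOSL1sh10 and -0.0945 between hairpins, CCNE1 and CDKN1B were at 0.0955 and 0.0199 with FOSL1sh10, and CDK4 and MYC differed between hairpins by -0.0904 and -0.0714. With no low-count filter CCND3 was at -0.0055 with FOSL1sh3. Leaving out single libraries, CCND3 ranged from -0.0277 to 0.0451 with FOSL1sh3, from -0.1205 to 0.0109 with FOSL1sh10 and from -0.057 to 0.0116 for the mean; CCNE1, CDKN1B and RB1 with FOSL1sh10 ranged from -0.1323 to 0.1038, -0.3323 to 0.0438 and -0.6196 to 0.0435; CCND1 for the mean from -0.1026 to 0.0119; CDK4 and MYC between hairpins from -0.1044 to 0.2473 and from -0.0073 to 0.1833. Members called went from 1 to 2 with FOSL1sh3 with no low-count filter and lay between 1 and 2 without single libraries, between 0 and 2 for the mean of both hairpins and between 1 and 2 between the hairpins. All genes called ran from 599 to 1803 with FOSL1sh3 (1392 with all libraries), from 347 to 919 with FOSL1sh10 (676), from 312 to 1002 for the mean (797) and from 712 to 1920 between hairpins (1633). With only the groups compared the count with FOSL1sh10 was 1124. With library totals alone 34.0% of calls with FOSL1sh3 were higher, against 48.0%, 77.5% with FOSL1sh10, against 59.3%, and 17.6% between hairpins, against 45.1%. Some groups that were separate on the TMM scale overlapped by library totals alone. These include MYC with FOSL1sh3, CDK2, E2F1, CCNA2, MLX and MRTO4 with FOSL1sh10, and CCND1 between hairpins. The shares of all genes whose groups did not overlap were not recounted on that scale. Among listed genes, fits of only the groups compared ended the calls of CDKN3, CDC6, RRM1, RRM2 and CAD with FOSL1sh3, and library totals alone ended that of CAD. The cause of these changes was not tested, other than that fewer libraries were fitted.

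Same-numbered libraries were not treated as pairs in the main fit. Their deviations from the group means correlated at -0.116 to 0.183 over 9 pairs, 2 of them over 0.1. Differently numbered libraries correlated at -0.165 to 0.156 over 18 pairs, 1 of them over 0.1, and 5 of 9 libraries correlated best with one of their own number. As these ranges overlap, the values do not decide whether the libraries were paired. With the replicate block 1454, 695, 812 and 1673 genes were called with FOSL1sh3, FOSL1sh10, the mean and between hairpins, and the member called remained CDK6 with FOSL1sh3, while among the listed genes named the call of RRM2 with FOSL1sh3 ended. Of the members, CDK4, RB1 and CDKN1B had the fewest counts, so counting error weighs most on their values.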

Other observations

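A view chosen after the values were seen concerns chromosome 9, where the genes of the inhibitors p16 and p15 lie (hg38). CDKN2A (21967753 to 21995301) and CDKN2B (22002903 to 22009363) had 0 counts in all 9 libraries, as did their antisense gene CDKN2B-AS1, and MTAP, the neighbouring gene (21802543 to 21937651) of a methionine salvage enzyme, had 1 count in all. KLHL9, farther along at 21329671 to 21335380, had 1105 counts over the libraries, at least 57 in each, whereas DMRTA1 and ELAVL2 on the other side also had 0. RNA counts do not show whether the DNA is present.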
